A study of Mus musculus with 6 samples.

Results

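Genes for acid-sensing channels and proton receptors were examined in preBötzinger complex (preBötC) neurons, namely 4 genes of the acid-sensing ion channel (ASIC) family (Asic1, Asic2, Asic3 and Asic4), 3 genes of the acid-inhibited TASK potassium channels (Kcnk3, Kcnk9 and Kcnk5) and 2 genes of proton-sensing G-protein-coupled receptors (Gpr4 and Gpr65). They were taken by gene name and make up 9 of the 49568 gene names measured in each sample. The preBötC is the medullary site that generates the inspiratory rhythm. RNA was sequenced from 3 samples of Dbx1 neurons and 3 samples of non-Dbx1 neurons, each holding 15 neurons drawn by micropipette from the slice of a different mouse at postnatal day 2. All 6 mice were Dbx1CreERT2; Rosa26tdTomato offspring of dams given tamoxifen during gestation, and no other treatment set the groups apart. Dbx1 neurons carried tdTomato because a tamoxifen-inducible Cre recombinase had been driven from Dbx1, a transcription factor of embryonic progenitors, and non-Dbx1 neurons were neighbouring neuronal somata without fluorescence. A neuron of Dbx1 origin in which recombination failed would therefore have been collected as non-Dbx1. In such pools, fewer neurons expressing a gene and less RNA of it per neuron cannot be told apart.

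Breathing is adjusted to the carbon dioxide and proton concentration of the brain, and several classes of membrane protein can sense protons. ASICs are sodium-permeable channels of 3 subunits that open when the extracellular fluid turns acid, whereas TASK channels carry a potassium leak that protons shut, so that acid depolarises a neuron through either class. Gpr4 and Gpr65 couple extracellular protons to intracellular signalling. The retrotrapezoid nucleus, rostral to the preBötC, is the best known site of central chemoreception, and Kcnk5 and Gpr4 are known from its neurons.

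Between 6464675 and 9432958 reads per sample fell on genes, as recovered from the steps between the deposited RPKM values (reads on a gene scaled by its exon length and by the total reads on genes of the sample). The 6 neuronal marker genes examined (Tubb3, Snap25, Syn1, Eno2, Rbfox3 and Syt1) were above 0 in all samples, with summed RPKM of 1044 to 1733 in Dbx1 neurons, against 1029 to 1404 in non-Dbx1 neurons. Erythroid genes summed to between 90.3 and 507 in the Dbx1 samples and between 733 and 14058 in those of non-Dbx1 neurons, and non-Dbx1 replicate 1 also had the highest sum of 6 oligodendrocyte genes (412, against 16.3 to 73.6 elsewhere).

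Asic1 and Asic2 were the most abundant of the 9 genes in both populations, followed by Kcnk3, then Kcnk9 and Asic4. Gpr4 was present in 2 samples, and Asic3, Kcnk5 and Gpr65 were at 0 in all 6. Mean RPKM over the 6 samples was 35.6 for Asic1, 35.6 for Asic2, 11.6 for Kcnk3, 6.29 for Kcnk9 and 4.13 for Asic4. Asic2 was above Kcnk3, Kcnk3 above Kcnk9, and Asic4 above Gpr4 in 6 of 6 samples each. Asic1 and Asic2 exchanged places between samples, each being the higher in 3, and so did Kcnk9 and Asic4. Of 27067 genes above 0 in at least 1 sample, 94.6% had a mean RPKM below that of Asic1, 94.6% below Asic2, 85.4% below Kcnk3, 77.3% below Kcnk9 and 70.9% below Asic4.

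**Figure D1:**
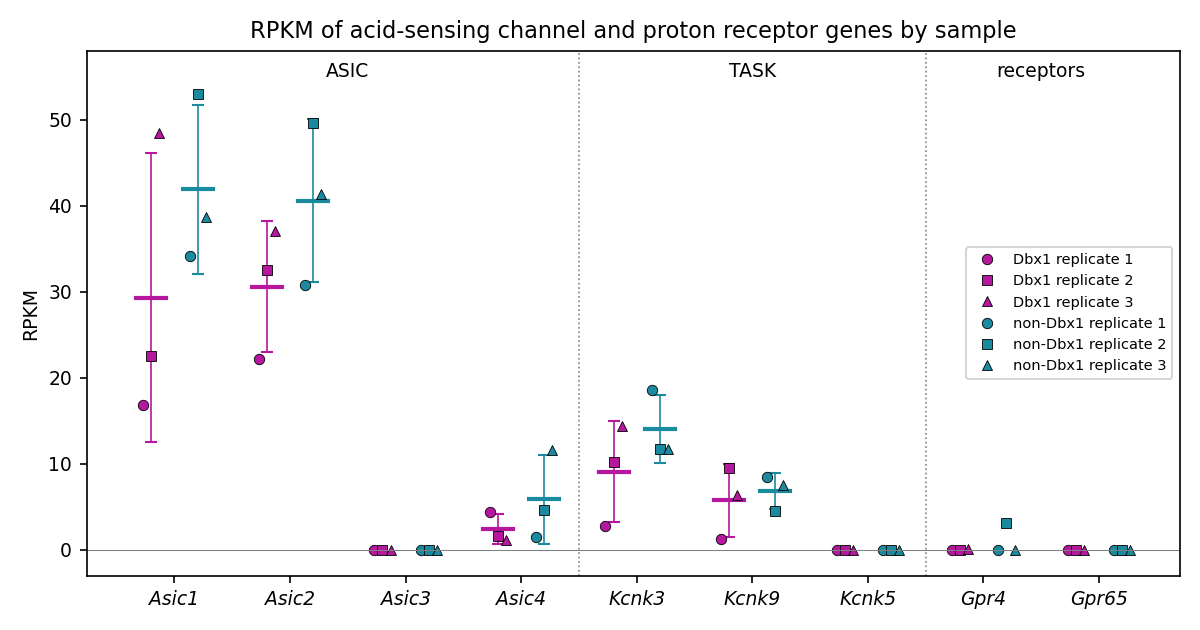
RPKM of the 9 genes in each sample, with replicate numbers given by symbol; thick lines and bars show the group mean and SD (n = 3 per group) for the 5 genes above 0 in all samples. Asic1 and Asic2 lie between 16.9 and 53.0, Kcnk3, Kcnk9 and Asic4 lie lower, and the points of the Dbx1 and non-Dbx1 samples overlap for every gene that was detected in both groups.

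The ASIC genes were examined first. Asic1 (ENSMUSG00000023017, GRCm38 chr15:99670368-99701130, plus strand), encoding the subunit on which most acid-evoked currents of central neurons depend, and Asic2 (ENSMUSG00000020704, chr11:80880169-81968457, minus strand), whose product modulates such channels as a heteromer, are close enough in sequence for their reads to need separating. The longest run of bases common to their coding sequences is shown because it sets the limit on that separation. In each line the 32 shared bases are in capitals, with 10 bases on either side in lower case, written 5′ to 3′ on the strand of the gene (GRCm38, capitals at chr15:99694787-99694818 for Asic1 and chr11:80971490-80971521 for Asic2).
Asic1: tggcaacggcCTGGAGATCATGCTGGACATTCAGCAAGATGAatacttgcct
Asic2: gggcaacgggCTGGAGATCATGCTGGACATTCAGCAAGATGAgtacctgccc
Over the whole of the 2 coding sequences, this run included, 69.3% of 1535 aligned bases were identical. No stretch of 50 bases, the longest read length, occurred in the transcripts of more than 1 of the 9 genes, so a full-length read of one could not be a perfect match to another.

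Asic1 RPKM was 16.9, 22.6 and 48.4 in Dbx1 neurons, against 34.2, 53.0 and 38.7 in non-Dbx1 neurons. Values of a group are given in the order of replicates 1 to 3 throughout. Dbx1 replicates 1 and 2 were the lowest of the 6 for Asic1, while Dbx1 replicate 3 exceeded 2 of the non-Dbx1 samples, so the groups overlapped. The group means were 29.3 ± 16.8 in Dbx1 and 41.9 ± 9.81 in non-Dbx1 neurons (SD, n = 3 each). The difference was smaller than the replicate spread allowed to be called (L2FC = −0.62, SE 0.392, 95% interval −1.51 to 0.28, limma FDR = 0.936), where L2FC is the mean log2(RPKM + 1) of Dbx1 minus that of non-Dbx1 samples. Without Dbx1 replicate 3 the L2FC was −1.04 (limma FDR = 0.769), and without Dbx1 replicate 1 it was −0.31.

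Asic2 RPKM was 22.1, 32.5 and 37.0 in Dbx1 neurons, against 30.8, 49.6 and 41.3 in non-Dbx1 neurons. Dbx1 replicate 1 was again the lowest, and Dbx1 replicates 2 and 3 lay above non-Dbx1 replicate 1. Asic2 varied least of the 5 genes detected throughout, with means of 30.6 ± 7.62 and 40.6 ± 9.44 (SD, n = 3 each) and an L2FC of −0.40 (SE 0.293, 95% interval −1.07 to 0.27, limma FDR = 0.940). The Asic2 value sums 2 annotated forms that begin at different first exons, and it does not tell them apart.

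Asic4 (ENSMUSG00000033007, chr1:75450436-75474343, plus strand), whose product does not open to protons on its own, was the most uneven of the detected ASIC genes. Its RPKM was 4.39, 1.59 and 1.18 in Dbx1 neurons, against 1.45, 4.63 and 11.6 in non-Dbx1 neurons. The highest value, in non-Dbx1 replicate 3, was 9.80 times the lowest, in Dbx1 replicate 3. That sample also had the highest sum of 6 cholinergic and motor neuron genes (157, against 3.14 to 27.8 in the other 5), with Prph at 95, Slc18a3 at 37.0, Isl1 at 13.3 and Chat at 4.0, their highest values of the 6. Slc5a7 was at 7.91 there but higher in Dbx1 replicate 3 (8.52) and non-Dbx1 replicate 2 (10.9), and Mnx1 was at 0. The part of these neurons in the Asic4 value was not tested. The groups overlapped, with an L2FC of −0.84 (SE 0.730, 95% interval −2.51 to 0.83, limma FDR = 0.951), and the L2FC was −0.25 without non-Dbx1 replicate 3 and −1.43 without non-Dbx1 replicate 1. Exons of the gene model Gm37264 cover 18.1% of the exonic bases of Asic4, and because reads were counted without regard to strand, reads from those bases cannot be assigned to one or the other.

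Asic3 (ENSMUSG00000038276, chr5:24413392-24417835, plus strand), a subunit known mainly from sensory neurons, was at 0 in all 6 samples. With 3 reads taken as the limit that a count of 0 allows, this corresponds to at most 0.0946 RPKM in the shallowest sample. The limit covers counting error only and assumes the annotated exon length of 4907 bases. The length the authors used cannot be recovered for a gene at 0, and a shorter one would raise the limit. Asic1, Asic2 and Asic4, being above 0 in all samples, necessarily exceeded Asic3 in 6 of 6, so no test of those pairs is given.

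Asic1 and Asic2 together made up 87.4% to 98.6% of summed ASIC RPKM. Asic1 held 38.9%, 39.8% and 55.9% of the sum in Dbx1 neurons and 51.4%, 49.4% and 42.2% in non-Dbx1 neurons. The ratio of Asic1 to Asic2 was 0.762, 0.694 and 1.31 in Dbx1 neurons, against 1.11, 1.07 and 0.935 in non-Dbx1 neurons, so it lay on either side of 1 in both populations. Over the 6 samples the log2(RPKM + 1) of Asic1 minus that of Asic2 averaged −0.06 ± 0.33 (SD, n = 6, exact two-sided sign-change test, p = 0.75). Asic1 and Asic2 were each above Asic4 in 6 of 6 samples, by a mean of 3.03 ± 1.14 and 3.09 ± 0.96 on the log2 scale (SD, n = 6, exact p = 0.031 for both, the smallest that 6 samples can give). The FDR was 0.039 over all 10 pairs within families and 0.042 over the 4 pairs of genes above 0 in all samples, the other 6 including a gene at 0. Asic4 formed 1.36% to 12.6% of the ASIC sum, and that range was almost spanned within each population. The deposited Asic4 value divides by an exon length in which overlapping exons of alternative transcripts are counted repeatedly. With merged exons its mean RPKM would be 6.46 instead of 4.13, above the 6.29 of Kcnk9, while Asic1 and Asic2 stayed above it in 6 of 6 samples. The length behind the Asic1 value matched no length computed from the annotation, so its level relative to other genes carries a factor that is not known.

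**Figure D2:**
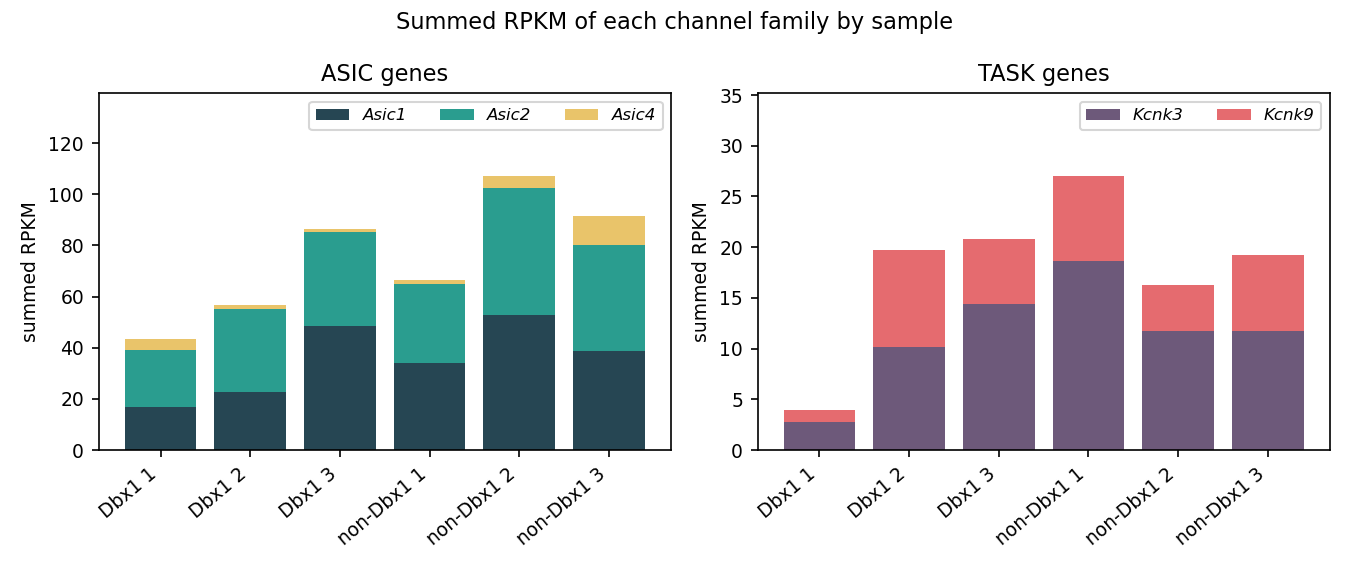
Summed RPKM of the ASIC genes (left) and TASK genes (right) in each sample, with bars divided by gene and starting at 0; Asic3 and Kcnk5 were at 0 and add nothing. Asic1 takes between 38.9% and 55.9% and Asic2 between 42.7% and 57.4% of each ASIC bar, and Dbx1 replicate 1 has the lowest bar in both panels (43.4 for ASIC, 3.99 for TASK).

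Kcnk3 and Kcnk9, the TASK genes detected, encode TASK-1 and TASK-3, which assemble with themselves or with each other into acid-inhibited leak channels. The longest run that their coding sequences share is printed for the same reason as above, with the 20 shared bases in capitals and 10 bases on either side, 5′ to 3′ on the strand of each gene (GRCm38, capitals at chr5:30588359-30588378 for Kcnk3 and chr15:72546218-72546237 for Kcnk9). Both runs fall at bases 43 to 62 of the coding sequence, counted from the first base of the start codon.
Kcnk3: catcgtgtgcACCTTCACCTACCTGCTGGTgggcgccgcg
Kcnk9: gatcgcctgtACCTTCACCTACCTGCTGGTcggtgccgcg
Of 1165 aligned coding bases, 68.5% were identical.

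Kcnk3 (ENSMUSG00000049265, chr5:30588170-30625271, plus strand) had RPKM of 2.74, 10.2 and 14.4 in Dbx1 neurons, against 18.6, 11.7 and 11.7 in non-Dbx1 neurons. Dbx1 replicate 1 stood below the other 5 samples, which lay within 10.2 and 18.6. Group means were 9.10 ± 5.90 and 14.0 ± 3.97 (SD, n = 3 each), with an L2FC of −0.77 (SE 0.541, 95% interval −2.0 to 0.47, limma FDR = 0.939). The L2FC without Dbx1 replicate 1 was −0.16. Exons of the gene model Gm9899 cover 5.76% of the exonic bases of Kcnk3.

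Kcnk9 (ENSMUSG00000036760, chr15:72501089-72546340, minus strand) showed the same low sample, with RPKM of 1.25, 9.56 and 6.42 in Dbx1 neurons, against 8.44, 4.54 and 7.54 in non-Dbx1 neurons. The lowest and the highest values were both from Dbx1 neurons. Group means were 5.74 ± 4.2 and 6.84 ± 2.04 (SD, n = 3 each), and the L2FC was −0.45 (SE 0.629, 95% interval −1.89 to 0.99, limma FDR = 0.962). Leaving out Dbx1 replicate 1 turned the sign of the L2FC to 0.21. The Kcnk9 values rest on 12 to 87 reads per sample over 1209 bases. That length is the smallest that gives whole reads and equals the coding sequence, whereas the annotated exons of Kcnk9 span 12300 bases. Its level relative to Kcnk3 and other genes rests on the length the authors used, and no other length was tried for it. Dbx1 replicate 1 had the highest sum of the neuronal markers (1733), carried by Tubb3 at 1232 and Snap25 at 301. Syn1 (88.7) and Eno2 (65.7) were there also above their means of 83.7 and 55.9. Rbfox3 (11.5) and Syt1 (33.3) were below their means of 18.2 and 46.5. The part of these differences in the Kcnk3 and Kcnk9 values was not tested.

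Kcnk3 exceeded Kcnk9 in 6 of 6 samples, by 0.78 ± 0.41 on the log2(RPKM + 1) scale (SD, n = 6, exact sign-change p = 0.031, FDR = 0.042 over the 4 pairs). The difference averaged 0.62 in Dbx1 neurons and 0.94 in non-Dbx1 neurons. Kcnk3 made up 68.7%, 51.6% and 69.1% of their summed RPKM in Dbx1 neurons and 68.8%, 72.1% and 60.8% in non-Dbx1 neurons. The lowest share came from Dbx1 replicate 2, in which Kcnk9 reached its highest level and the ratio of Kcnk3 to Kcnk9 was 1.07, against 1.55 to 2.58 elsewhere. The ASIC sum was 2.46 to 10.9 times the TASK sum, with the highest ratio in Dbx1 replicate 1. This ratio carries the uncertain exon lengths behind Asic1, Asic4 and Kcnk9 given above.

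Kcnk5 (ENSMUSG00000023243, chr14:20140057-20181809, minus strand), encoding TASK-2, an alkaline-activated channel of the same family, was at 0 in all 6 samples. At its annotated exon length this allows at most 0.125 RPKM.

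Among 14 two-pore potassium channel genes, the wider family of leak channels to which TASK belongs, Kcnk3 had rank 3, 2 and 2 by RPKM in Dbx1 neurons and rank 1, 1 and 3 in non-Dbx1 neurons. Kcnk9 had ranks from 2 to 5, which rest on the exon length used for it, as does the TASK share below. Kcnk4 and Kcnk1, with mean RPKM of 10.8 and 8.78, were the other members near the level of Kcnk3. The TASK genes provided 14.8%, 40.9% and 34.2% of the RPKM of all 14 in Dbx1 neurons and 61.1%, 45.0% and 34.6% in non-Dbx1 neurons. Kcnk13 and Kcnk18 were at 0 throughout, and of the 9 family members outside the lists of proton sensors, 7 could be tested and 0 were called, with 2 L2FC above 0 and 5 below.

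**Figure D3:**
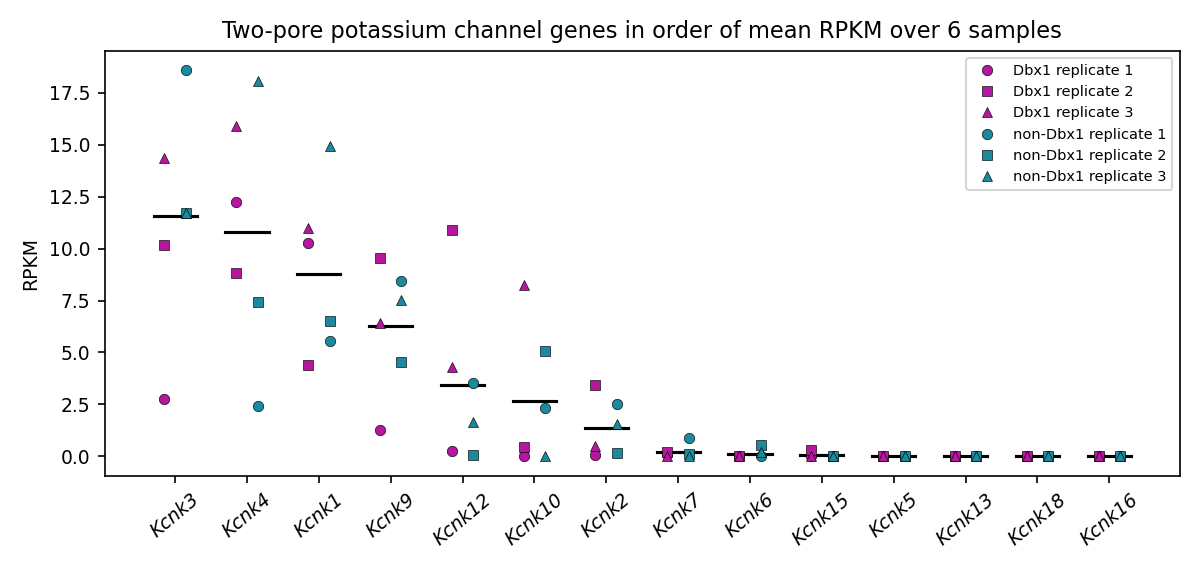
RPKM of 14 two-pore potassium channel genes in each sample, in order of the mean over 6 samples, which the black lines show. Kcnk3 has the highest mean (11.6), Kcnk9 the fourth (6.29), and Kcnk5 is at 0 in all samples. Dbx1 replicate 1 is the lowest point for Kcnk3, Kcnk9 and Kcnk2, and is at 0 together with other samples for Kcnk10, Kcnk6 and Kcnk15. It is not the lowest for Kcnk4, Kcnk1, Kcnk12 or Kcnk7. The sum of the 14 genes is also lowest in Dbx1 replicate 1 (26.9, against 36.1 to 60.8 elsewhere).

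Of the proton receptors, Gpr4 (ENSMUSG00000044317, chr7:19212538-19224174, plus strand) was present at 3.16 RPKM in non-Dbx1 replicate 2, from 78 reads, and at 0.0499 in Dbx1 replicate 3, from 1 read. It was at 0 in the other 4 samples, where 3 reads would correspond to 0.110 to 0.161 RPKM. It was not tested with limma, being above 0 in fewer than 3 samples, and the exact two-sided permutation p was 1. Gpr4 is also a gene of vascular endothelium, and the sum of 6 endothelial genes was 72.2 in non-Dbx1 replicate 2, against 3.95 and 0.0427 in the other non-Dbx1 samples and 0.168 to 1.03 in the Dbx1 samples. In that sample Cldn5 was at 63.7, Kdr at 3.98 and Tek at 2.16, their highest values of the 6, while the defining marker Pecam1 was at 0.034 and Cdh5 at 0.646. The part of endothelial RNA in the Gpr4 value was not tested.

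**Figure D4:**
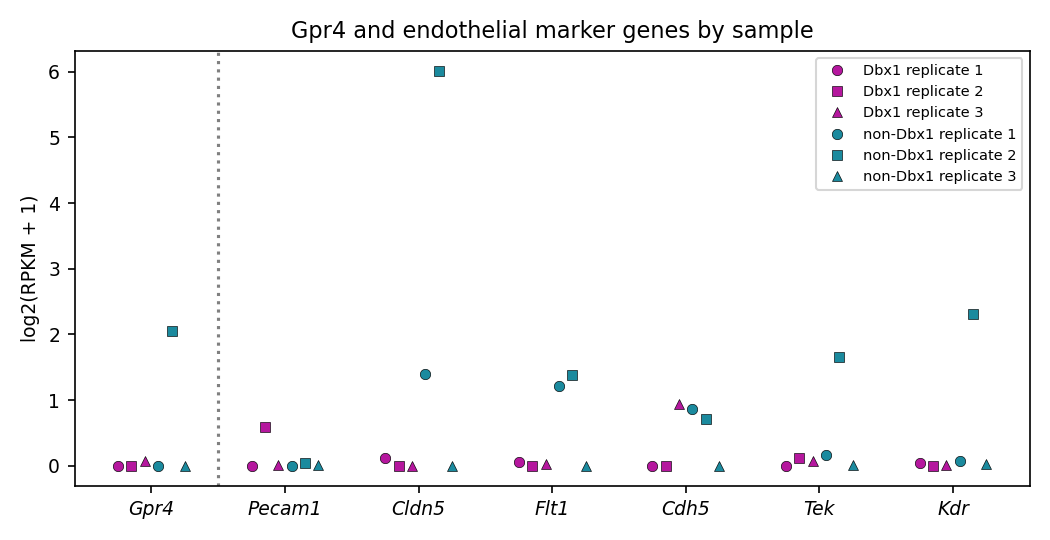
Log2(RPKM + 1) of Gpr4 (left of the dotted line) and of 6 endothelial marker genes in each sample. Non-Dbx1 replicate 2, the teal square, is the highest point for Gpr4, Cldn5, Flt1, Tek and Kdr, but not for Pecam1 or Cdh5.

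Gpr65 (ENSMUSG00000021886, chr12:98268635-98276644, plus strand), a receptor of immune cells that microglia express, was at 0 in all 6 samples. At its annotated exon length this allows at most 0.224 RPKM. Of its exonic bases, 24.7% lie within exons of the gene model Gm47566. Of 7 microglial genes examined, 5 were above 0 in at least 1 sample, with sums of 0.202 to 10.4 in Dbx1 neurons and 0.756 to 13.3 in non-Dbx1 neurons. Most of the higher sums were C1qa (7.46 in Dbx1 replicate 3 and 10.2 and 11.8 in non-Dbx1 replicates 2 and 3), and Tmem119 and Itgam were at 0 throughout. Gpr4 exceeded Gpr65 in 2 samples, and both were at 0 in the others. With so few differences from 0 the exact sign-change test could give no p below the 0.50 obtained. It therefore cannot decide whether the 2 genes differ.

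Expression was not called different between Dbx1 and non-Dbx1 neurons for any of the 5 genes that could be tested. This comparison asks whether the rhythmogenic population differs from its neighbours in the means to sense protons. With limma, 0 of 5 passed FDR < 0.1 and 0 had an unadjusted p below 0.05, against 0.00568% and 5.2% of all 17614 genes tested. The Dbx1 and non-Dbx1 samples overlapped for all 5, whereas 10.6% of all genes tested had groups that did not overlap. All 5 L2FC were below 0, as were 49.2% of those of all genes tested, and the median of the 5 was −0.62, with 0.0089 over all genes. Dbx1 replicate 1, the lowest sample for 4 of the 5 genes, enters every one of these L2FC, and without it the sign of Kcnk9 was opposite to that of the other 4. The exact two-sided permutation p of the group difference was 0.30 for Asic1, 0.30 for Asic2, 0.40 for Asic4, 0.40 for Kcnk3 and 0.70 for Kcnk9 (n = 3 against 3, smallest possible p 0.10). The 95% intervals reached −1.07 for Asic2, the narrowest, and −2.51 for Asic4, the widest, so that differences of those sizes on the log2(RPKM + 1) scale could not be told from none.

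**Figure D5:**
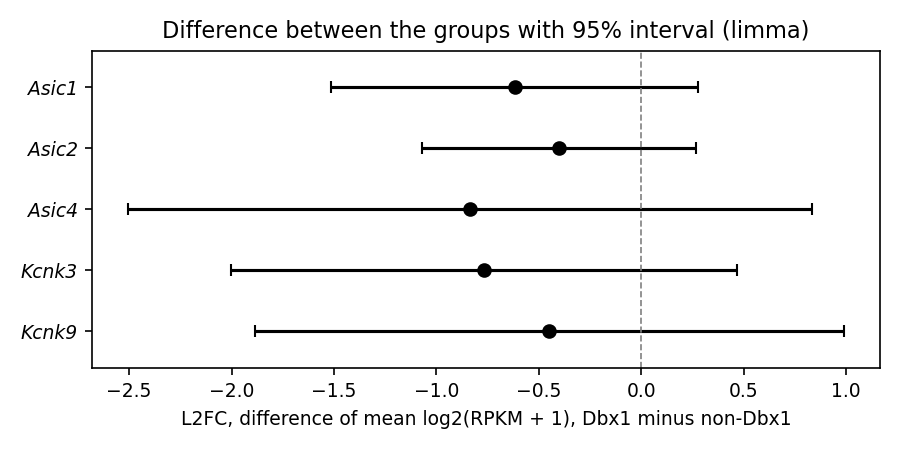
L2FC (points) with 95% intervals from limma (bars) for the 5 genes tested, as the mean log2(RPKM + 1) of 3 Dbx1 samples minus that of 3 non-Dbx1 samples. All 5 points lie left of the dashed line at 0, from −0.84 for Asic4 to −0.40 for Asic2, and all 5 intervals cross it.

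The genes whose RPKM followed each of the 5 most closely over the 6 samples were sought by Pearson's r of log2(RPKM + 1) among 4424 genes with a mean RPKM of at least 10, and are given as a description, since 6 samples and 4424 genes yield high values readily. Asic2 went with Faim2 and Cops8 (r = 0.982 for both) and Asic1 with Kcne1l and Tm9sf3 (r = 0.971 for both). Asic4 went with Clip3 and Glo1 (r = 0.992 for both), Kcnk3 with Mogs (r = 0.988) and Gm14539 (r = 0.98), and Kcnk9 with Pias2 (r = 0.986) and Tmem14a (r = 0.985). Mogs had 3.23, 8.66 and 12.2 RPKM in Dbx1 neurons, against 17.8, 12.3 and 10.8 in non-Dbx1 neurons, with its lowest and highest samples those of Kcnk3. Pias2 was at 3.15 in Dbx1 replicate 1 and at 10.9 to 17.6 in the others.

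Further genes for sensing protons or carbon dioxide were mostly at or near 0. Of 13 such genes, 11 were above 0 in some sample but 4 were detected in enough samples to be tested, and 0 were called. Tmem206, encoding a proton-activated chloride channel, had 0, 4.67 and 17.5 in Dbx1 neurons, against 0.413, 0.0520 and 0 in non-Dbx1 neurons, with an L2FC of 2.05 (SE 0.963, limma FDR = 0.912). It was at 0 in Dbx1 replicate 1 and higher in the other Dbx1 samples than in any non-Dbx1 sample. Kcnj10 and Kcnj16, which form a pH-sensitive inward rectifier, had L2FC of −0.69 and 0.68 and overlapping groups. Asic5, Kcnk15, Trpv1, Otop1 and Gjb2 did not exceed 0.657 RPKM in any sample, and Kcnk16 and Hvcn1 were at 0. Of 3 epithelial sodium channel genes, relatives of the ASIC genes, none was above 0 in more than 2 samples, and Scnn1b reached 3.54 in non-Dbx1 replicate 2.

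Partner proteins of ASIC and TASK channels were better represented. All 8 examined were above 0 in some sample, 7 were tested and 0 were called, with 5 L2FC above 0, 2 below and a median of 0.38. Pick1, a scaffold that binds Asic1 and Asic2, had RPKM of 6.63, 6.04 and 6.37 in Dbx1 neurons, against 4.17, 5.33 and 3.55 in non-Dbx1 neurons, so the groups did not overlap (L2FC = 0.47, SE 0.414, limma FDR = 0.951). Lin7b, a PDZ-domain scaffold protein, had RPKM of 26.2, 27.5 and 41.7 against 18.1, 21.9 and 23.1, also without overlap (L2FC = 0.55, SE 0.277, limma FDR = 0.913). These 2 of 7 compare with 10.6% of all genes tested. Ywhab, a 14-3-3 protein, and S100a10, both of which bind TASK-1 and bear on its transport to the membrane, had mean RPKM of 313 and 39.8.

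Of 20 genes that regulate pH, namely carbonic anhydrases and transporters of bicarbonate, protons and monocarboxylates, 19 were above 0 in some sample, 17 were tested and 0 were called. Of these, 4 L2FC were above 0 and 13 below, with a median of −0.16. Car2, a cytosolic carbonic anhydrase, and Slc4a3, a chloride-bicarbonate exchanger, had the highest means of the list (23.5 and 12.5). The groups did not overlap for Car5b and Car12, at RPKM of no more than 1.17 and 0.229, and Car14 was at 0.

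Markers of the retrotrapezoid nucleus were examined because Kcnk5 and Gpr4 are known there. Atoh1 was at 0 in all samples. Nmb and Lbx1, with mean RPKM of 1.70 and 5.12, were not called (L2FC = 0.41 and −0.02, limma FDR = 0.963 and 0.999). Of 6 astrocyte genes, summed RPKM was 24.5 to 37.0 in Dbx1 neurons and 32.9 to 44.9 in non-Dbx1 neurons, and of 3 serotonergic genes Tph2 alone was above 0, at 3.36 in Dbx1 replicate 1. The part of these cells in the levels of the ASIC and TASK genes was not tested.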

How the data were processed

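Neurons were drawn from medullary slices, and complementary DNA was made with SMART-Seq v4 and sequenced as single-end reads. The authors aligned reads to mm10 with TopHat2, counted them on Ensembl gene names with HTSeq, without strand, and deposited RPKM values divided by summed exon length. The annotation release is not given in the sources used here. The authors tested counts with DESeq2. The main test here used RPKM, and reads recovered from RPKM served for floors and for voom. RPKM was tested as log2(RPKM + 1) with limma 3.58.1 (eBayes with trend) in R 4.3.3, two-sided, over 17614 genes above 0 in at least 3 samples, adjusted by Benjamini-Hochberg and called at FDR < 0.1. The fit was tested on simulated data.

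Reads per gene were recovered from RPKM steps, with whole values within 0.01 reads for 99.5% of 27067 genes, and 13915 of these used exon lengths of GENCODE vM21 (GRCm38). For other genes the smallest fitting whole numbers were taken, which may understate the reads. Reads are amplified and not independent molecules. Each sample came from a different mouse. Pairs of genes within a family were compared by exact sign changes over 6 samples. Gene lists and the 9 genes were chosen with earlier results of these data known, and for each of the genes tested the 2 most alike genes were named. Alternatives were a pseudocount of 0.1, other filters and scalings, no trend, a replicate block, voom, samples left out in turn and, added after seeing the data, merged exon lengths and pairs of genes above 0 throughout. Some genes of the lists are not reported here.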

Additional observations from a re-analysis of the deposited data

How the results depend on the processing

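No alternative called any of the 5 genes tested. Of 10 pairs of genes, 8 passed FDR 0.1, but 5 of these set a gene above 0 throughout against a gene at 0 throughout, so that passing was fixed. With the 4 pairs of genes above 0 in all samples alone, 3 passed, each with the same order in all 6 samples. The same number passed under each of 8 alternatives. With a sample left out or another pseudocount this was fixed, since neither can change the order within a sample. Merged exon lengths could have changed the order of Asic4 against Asic1 and Asic2, and did not. FDR of the 5 genes ranged from 0.769 to 0.999. The L2FC range was −1.04 to −0.31 for Asic1, −0.58 to −0.19 for Asic2, −1.43 to −0.25 for Asic4, −1.18 to −0.16 for Kcnk3 and −0.90 to 0.21 for Kcnk9, and the positive value, without Dbx1 replicate 1, was the only change of sign. Asic1 minus Asic2 was 0.0023 without Dbx1 replicate 1, 0.0295 without Dbx1 replicate 2 and 0.0475 in non-Dbx1 samples alone, with a range of −0.148 to 0.0295 over samples left out in turn, against −0.06 over all. Over all genes, 1 was called and 916 had p below 0.05. The number called was 0 with a pseudocount of 0.1, with genes above 0 in at least 1 sample, and with voom on recovered reads, 3 without trend, and between 0 and 1 with each sample left out, being 0 without non-Dbx1 replicate 3. The cause was not tested. The replicate numbers pair no samples, since each mouse gave 1 sample and deviations of same-numbered samples correlated at −0.107, 0.0248 and −0.0522. With the replicate number as a block, limma called 0 genes (819 with p below 0.05), and the 5 genes had FDR of 0.980 to 0.990. At this depth, and if the annotated exon lengths hold, a gene at 0 could still be present below about 0.0946 to 0.224 RPKM.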
